A study of Solanum lycopersicum with 2 samples.

Results

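Runs of closely spaced SlWUS peaks were stretches of tomato DNA in which 4 or more neighbouring peak summits followed each other at distances of 2000 bp or less. By this rule 3979 peaks lay in 889 runs, out of 65452 peaks in the list. Of all listed peaks, 65446 were on chromosomes 1 to 12, and the 6 on unplaced sequence could not be members. The members were chosen by the positions of the summits alone, so their number, spacing and local density are given as descriptions, with no test. Enrichment was not used by the rule.

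The peaks come from DNA affinity purification sequencing (DAP-seq), in which a tagged transcription factor pulls fragments out of a library of genomic DNA outside the cell. The SlWUS sample is titled for WUSCHEL, and the other sample is its input. Both are genomic DNA from greenhouse plants of the tomato cultivar Ailsa Craig (Solanum lycopersicum), and their labels name Halo, a protein tag, beside the flower abscission zone. There was 1 library of each, so no spread between replicates exists, no difference was tested, and spreads below are counting intervals or SDs over 12 chromosomes of the same library.

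WUSCHEL belongs to the homeodomain transcription factors and keeps stem cells in the shoot and flower meristems of plants, and CLV3 encodes the secreted peptide that limits it. In Arabidopsis, WUSCHEL binds DNA as a dimer, and it acts on CLV3 through a group of neighbouring binding sites. Several sites for 1 factor within a short stretch are called a homotypic cluster, and such clusters are known in many regulatory regions. DAP-seq records which DNA the protein can bind without chromatin, so a run of peaks is a stretch of bindable DNA and not a record of binding in the abscission zone. Gene models and the sequence of these stretches were not analysed here, so no run is assigned to a gene, a repeat or a motif.

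Runs were short and few peaks long. Of the 889 runs, 604 had 4 peaks, 195 had 5, 55 had 6, 26 had 7, 5 had 8 and 4 had 9. The median run spanned 3948 bp from its first to its last summit (quartiles 3240 and 4702 bp), with extremes of 1741 and 10814 bp. Together the runs took up 4.02 Mb, which was 0.520% of the span of the chromosomes, and held 6.08% of the peaks (exact Clopper-Pearson 95% interval 5.90 to 6.27%). Within the runs, 38.8% of the sequence lay under a peak and the rest lay between peaks.

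Inside runs the summits were most often 750 to 1000 bp apart. The 3090 distances had a median of 1145 bp (quartiles 825 and 1524 bp) and ranged from 367 to 2000 bp. Distances of 750 to 1000 bp made up 19.9% of them, distances of 500 to 750 bp 16.7%, and distances of 1750 to 2000 bp 13.04%. Only 69 were at most 500 bp, a range in which a peak caller can join close peaks. The gap between the edges of neighbouring peaks was never under 208 bp, with a median of 726 bp. Shorter chains, which the rule left out, were spaced alike, with a median of 1147 bp in chains of 3 summits and 1164 bp in chains of 2. Their distances have the same cap of 2000 bp, so alike spacing follows in part from it. The distances within a run were uneven, and their coefficient of variation had a median of 33.5%.

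**Figure D1:**
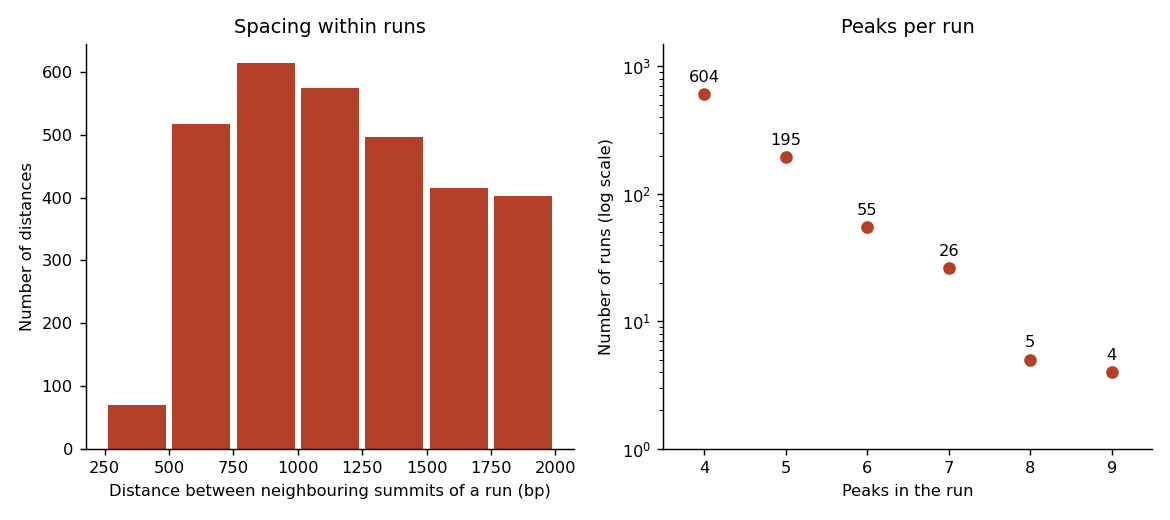
Left, number of distances between neighbouring summits of a run against distance in bp, in classes of 250 bp. Right, number of runs (log scale) against the number of peaks in the run. Distances of 750 to 1000 bp were the most frequent class, and 604 of 889 runs had the least number of peaks, 4.

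Values close to the limits of the rule were as follows. Just inside the distance limit, 167 distances within runs were over 1900 bp. Just outside it, 33 of the 1778 distances from a run to the next summit beyond it were at most 2100 bp. The counts cannot be set against each other, since outward distances exist only at run ends. That outward distance had a median of 6488 bp, was at most 3000 bp in 17.6% of cases and exceeded 10000 bp in 34.0%. Just inside the limit on number, the 604 runs of 4 had a median fold of 4.17 and a median width of 329 bp. Just under it, 2136 chains of 3 summits held 6408 peaks, with a median fold of 4.26 and a median width of 325 bp.

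Runs were densest near the ends of the chromosomes, which are known to be rich in genes in tomato. The distal zones, 10% of the span taken from either end, held 406 runs (45.7%) at 2.63 per Mb. The central zones, from 30% to 70% of the span, held 147 runs at 0.476 per Mb, and 336 runs lay in between. The density of runs was 5.53 times as high in the distal as in the central zones (mean log2 ratio 2.47 ± 1.08, SD over 12 chromosomes), and higher distally on 12 of 12 chromosomes. For peaks outside runs the same ratio was 1.86 (log2 0.89 ± 0.25). The log2 ratio of runs exceeded that of the other peaks by 1.57 ± 0.86, on 11 of 12 chromosomes. Dense stretches yield more runs by the rule itself, so nothing about SlWUS is read from this excess.

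**Figure D2:**
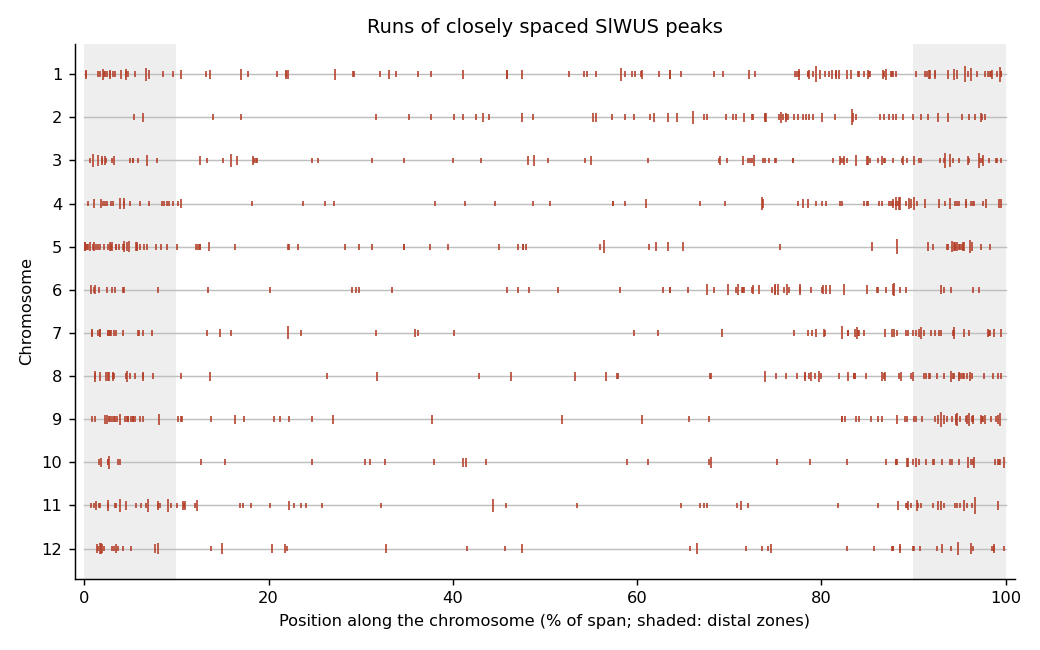
Position of each run along its chromosome, in % of the chromosome's span, for chromosomes 1 to 12. Each tick is 1 run, taller with more peaks, and shading marks the distal zones, which held 406 of 889 runs. The ticks crowd at both ends of most chromosomes, whereas chromosome 2 has few in its first part.

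The chromosomes differed in this pattern. Chromosome 9 had the sharpest contrast, with 53 distal and 5 central runs, a density ratio of 19.5. Chromosome 2, whose short arm carries the nucleolus organizer, had 12 distal and 23 central runs, a ratio of 1.06, and 55 of its 69 runs lay in the second part of its span. Chromosome 5 ran the other way, with 55 of 83 runs in the first part. Chromosomes 10 and 12 had the fewest runs, 49 each, at 0.756 per Mb (exact Poisson 95% interval 0.560 to 1.0) and 0.735 per Mb (0.544 to 0.972). Chromosomes 6 and 3 had the most for their span, 1.35 per Mb each (1.04 to 1.73 and 1.08 to 1.66), and neither interval meets those of chromosomes 10 and 12. These intervals take runs as independent and cover counting error only.

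The share of peaks that belonged to a run followed the same gradient. In the distal zones 9.01% of 20395 peaks were in runs (exact 95% interval 8.62 to 9.41%), and in the central zones 3.14% of 20510 (2.91 to 3.39%). The distal share was the higher one on 11 of 12 chromosomes, with chromosome means of 8.73% ± 2.46 distally and 3.07% ± 1.28 centrally (SD, 12 chromosomes). Chromosome 2 was the exception, at 5.01% distally and 5.64% centrally. Over windows of 1 Mb, the share was 1.87% in windows of up to 50 peaks and 12.2% in the densest class of windows, which reached 187 peaks. The shape of a run hardly changed between zones: median spans were 3959 bp distally and 3667 bp centrally, and median distances between summits 1153 and 1099 bp.

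**Figure D3:**
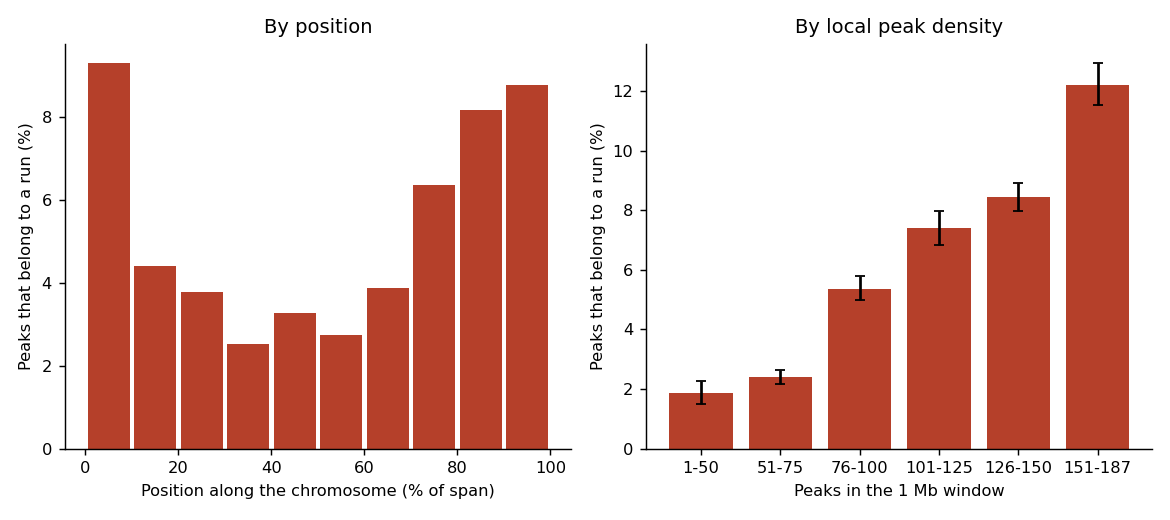
Left, share of peaks that belong to a run (%) against position in steps of 10% of the chromosome span, over 12 chromosomes. Right, the same share by the number of peaks in the 1 Mb window, with exact 95% counting intervals. The share was 9.29% in the first step and 8.77% in the last, was lowest at 2.52% between 30% and 40% of it, and increased from sparse to dense windows.

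The first 1 Mb of chromosome 5 contained peaks of 10 runs, and 44 of its 174 peaks (25.3%) were members. Windows with 9 runs were on chromosome 5 from 61000001 to 62000000 (41 of 179 peaks), chromosome 9 from 66000001 to 67000000 (39 of 173) and chromosome 9 from 3000001 to 4000000 (36 of 151). Chromosome 4 from 56000001 to 57000000 and chromosome 7 from 1000001 to 2000000 had 8 runs each. The chromosome 4 window lies outside the distal zone, and the others named here lie within it. At the other extreme, chromosome 7 had no run over 13.2 Mb, from 27247577 to 40487800. Neighbouring runs on a chromosome were a median of 332147 bp apart, and 91 of 877 such distances (10.4%) were at most 50000 bp. The closest runs lay 2251 bp apart on chromosome 1 from 41634838 to 41647949, with 5 peaks each.

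Peaks in runs were close in strength to peaks outside runs, and on most chromosomes slightly weaker. Strength is the fold enrichment, the authors' value for the pileup of fragments at the summit over the local background. Its median was 4.18 in run peaks (quartiles 3.28 and 5.93) and 4.34 in the 61467 peaks outside runs (quartiles 3.38 and 6.17). Chromosome medians averaged 4.19 ± 0.175 in runs and 4.35 ± 0.0298 outside them (SD, 12 chromosomes). The log2 difference, run minus other peaks, was -0.054 ± 0.056 (0.963 times), and it was negative on 10 of 12 chromosomes, all but chromosomes 3 and 5. The mean difference was thus about the size of its own spread. Within the distal zones it was -0.0015 ± 0.0997, negative on 6 chromosomes and positive on 6, and within the central zones -0.081 ± 0.11, negative on 9. Set against other peaks within 50 kb of each run, it was -0.010 ± 0.077 over 874 runs, negative on 9 of 12 chromosomes. These values lie within each other's spread.

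The number of fragments hardly differed. The median pileup was 29 fragments in runs and 30 outside, and the difference of chromosome medians, run minus other, was -0.50 ± 1.0 fragments (SD, 12 chromosomes). It was negative on 6 chromosomes, positive on 2 and 0 on the rest, and against other peaks within 50 kb it was 0.13 ± 1.53. At a depth of 30 fragments per peak, such differences are not resolved for any single peak. By size of run, the median fold was 4.17 in runs of 4, 4.18 in runs of 5, 4.26 in runs of 6 or 7 and 4.04 in the 76 peaks of runs of 8 or 9. Peaks with no other summit within 2000 bp had a median of 4.39, and chains of 2 had 4.27. Chains of 3 had 4.26. The medians thus decreased in small steps from lone peaks to runs of 4, and showed no steady order among larger runs.

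The share of strong peaks was lower in runs at 20-fold and 50-fold, but close to that of all peaks at 10-fold and 100-fold. At 10-fold or more there were 329 run peaks, 8.27% of the 3979 (exact 95% interval 7.43 to 9.17%), against 9.30% of the other peaks (9.07 to 9.53%) and a background of 9.23% of all peaks. The intervals overlap; they take peaks as independent and cover counting error only. At 20-fold or more there were 55 run peaks, 1.38% (1.04 to 1.795%), against 2.03% of the other peaks (1.92 to 2.14%) and 1.99% of all. At 50-fold or more there were 2 run peaks, 0.0503% (0.00609 to 0.181%), against 163 other peaks, 0.265% (0.226 to 0.309%), and 0.252% of all. At the last 2 limits the intervals of run and other peaks do not meet. Run peaks lie more often in the distal zones than other peaks do. The shares at these 2 limits were not split by zone, so no trait of runs is read from them. Both run peaks above 50-fold were also above 100-fold, where the share was 0.0503% in runs, 0.0537% outside them and 0.0535% among all peaks. Peaks at 10-fold or more made up 7.02% of distal run peaks and 7.96% of other distal peaks, and 10.9% of central run peaks and 10.2% of other central peaks, with overlapping intervals in each zone.

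Peaks of the same run differed widely in strength. Differences between runs took up 1.92% of the variance of log2 fold and 1.43% of that of log2 pileup among the 3979 peaks, and the rest lay within runs. In the median run the strongest peak had 2.50 times the fold of the weakest and 1.37 times that of the second strongest. Of the 889 runs, 610 had no peak at 10-fold or more, 234 had 1, 40 had 2 and 5 had 3, and none had all of its peaks past that fold. In 137 runs (15.4%) every peak was under 5-fold, and in 10 runs every peak was at 5-fold or more. With 9.23% of all peaks at 10-fold or more, nothing particular to runs is read from these counts. Neighbours differed to a like degree at all distances: the higher of the folds of 2 neighbours was 1.49 times the lower in the median pair at 250 to 750 bp, and 1.51 times at 1500 to 2000 bp.

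First, inner and last peaks hardly differed in strength or width. The median fold was 4.24 in the 889 first peaks, 4.13 in the 2201 inner peaks and 4.27 in the 889 last peaks. The median pileup was 30, 29 and 30 fragments, and the median width 331, 330 and 327 bp, in the same order. Within a run, the mean log2 fold of the inner peaks minus that of the ends had a median of -0.025 over runs, with quartiles of -0.45 and 0.40. Inner peaks were the stronger ones in 47.7% of runs (exact 95% interval 44.4 to 51.04%). By chromosome the difference was -0.048 ± 0.094 (SD, 12 chromosomes) and negative on 10 of 12, a mean smaller than its spread. The first peak was stronger than the last in 49.4% of runs (46.05 to 52.7%), an interval that covers an even split. First and last follow the coordinates, which have no biological direction.

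The strongest peak of a run took its place about as often as the number of places allows. It was an inner peak in 453 runs, 51.0% (47.6 to 54.3%), where inner places made up 54.1% of the places of a run on average. It was the first peak in 228 runs (25.6%) and the last in 208 (23.4%). In runs of 4, where 50% of places are inner, the share was 47.02% (43.0 to 51.1%), and in runs of 5, with 60%, it was 53.8% (46.6 to 61.0%). In these runs of 4, median folds along the run were 4.33, 4.12, 4.01 and 4.20 from the first to the fourth place. Longer runs leaned the other way: in the 90 runs of 6 or more peaks, inner peaks had a median fold of 4.35 and a median width of 344 bp, and end peaks 3.98 and 312 bp. The inner minus end difference in log2 fold was 0.086 ± 0.27 there, again below its spread over chromosomes.

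**Figure D4:**
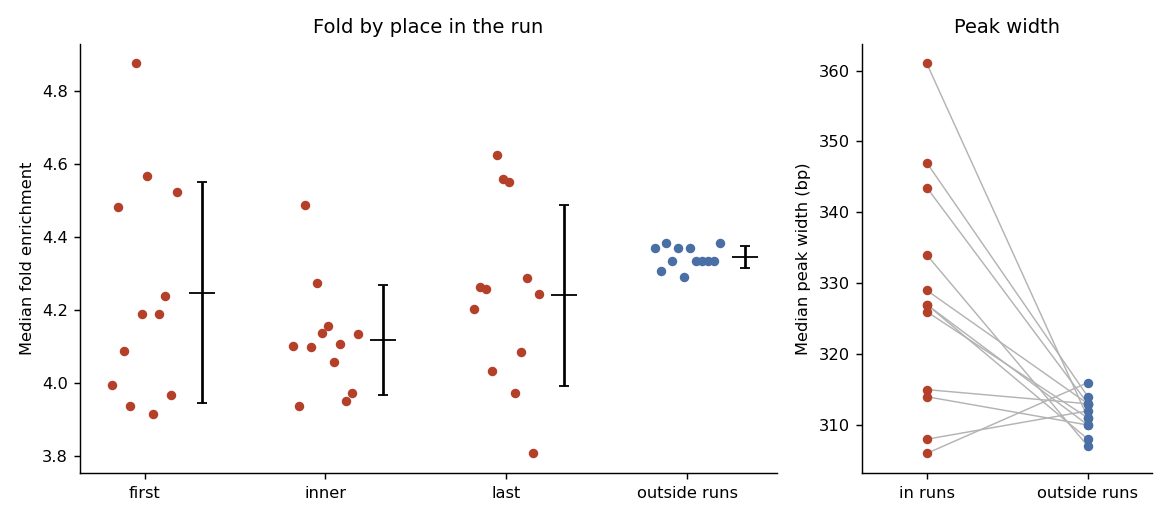
Left, median fold enrichment of first, inner and last peaks of runs and of peaks outside runs, 1 point per chromosome, with the mean and SD over 12 chromosomes as a black mark and bar (the axis does not start at 0). Right, median peak width in bp in runs and outside runs, with lines joining the values of 1 chromosome. The 3 places in a run overlap with one another, and run peaks were wider on 10 of 12 chromosomes.

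Run peaks were a little wider. Their median width was 329 bp (quartiles 259 and 456 bp), against 312 bp outside runs (251 and 418 bp). The difference of chromosome medians was 16.6 ± 17.1 bp (SD, 12 chromosomes) and positive on 10 of 12. It was 8.75 ± 28.4 bp within the distal and 19.8 ± 18.5 bp within the central zones. Against other peaks within 50 kb it was 10.6 ± 16.4 bp, positive on 9 of 12 chromosomes. Outside runs, the median width was 308 bp in peaks with no other summit within 2000 bp, 317 bp in chains of 2 and 325 bp in chains of 3. The greater width was thus not particular to runs. Peaks of 800 bp or more made up 4.95% of run peaks (exact 95% interval 4.30 to 5.67%) and 3.66% of other peaks (3.51 to 3.81%). Width is not independent of the rule, since wide peaks push neighbouring summits apart. Inner and end peaks hardly differed in width, by -4.13 ± 28.3 bp over chromosomes.

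The local background of run peaks had the same median but fewer of the lowest values. The median was 6.11 expected fragments in runs and outside them. The difference of chromosome medians, run minus other, was 0.030 ± 0.070 fragments (SD, 12 chromosomes), positive on 7 and negative on 4. Within the distal zones it was -0.14 ± 0.17, negative on 11 of 12 chromosomes, and within the central zones -0.011 ± 0.23. Against other peaks within 50 kb it was -0.036 ± 0.14, negative on 7 of 12. The lowest value in the list, 4.08 fragments, was shared by 112 run peaks and 4846 other peaks. Whether it is a floor set by the caller, and not a measured background, was not tested. It was found at 2.81% of run peaks (exact 95% interval 2.32 to 3.38%) and at 7.88% of other peaks (7.67 to 8.10%). The same held within the distal zones, at 1.58% (1.06 to 2.26%) against 3.10% (2.86 to 3.36%), and within the central zones, at 4.34% (2.90 to 6.21%) against 9.49% (9.09 to 9.91%). Inner peaks had it least often, 2.18% (1.61 to 2.88%), compared with 3.04% of first (2.01 to 4.39%) and 4.16% of last peaks (2.95 to 5.69%). The intervals of inner and last peaks do not meet. All these intervals take peaks as independent and cover counting error only. Neighbouring peaks can share a background, so the intervals can be too narrow, and no difference between places is read from them. Differences between runs took up 24.4% of the variance of the background, but peaks that share a local window of the caller have part of it in common by construction. A higher background under a peak lowers its fold. Run peaks had fewer of the lowest values but no higher median, and the part of the background in their slightly lower fold was not tested.

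Among the 9 runs with 8 or 9 peaks, 3 had a peak at 10-fold or more. Such peaks made up 3.95% of the 76 peaks in these runs (exact 95% interval 0.822 to 11.1%), beside 9.23% of all peaks. The shortest of the 4 runs with 9 peaks lay on chromosome 11 from 52568676 to 52576286, at 96.7% of the span. From its first to its last peak the fold was 4.77, 3.21, 2.66, 4.98, 4.16, 7.18, 4.54, 2.83 and 2.07. Its highest peak had 49 fragments at the summit (exact Poisson 95% interval 36.3 to 64.8), and none reached 10-fold. The run on chromosome 1 from 86803854 to 86813867 had folds of 3.66, 4.12, 3.50, 6.17, 3.84, 3.84, 10.2, 4.04 and 3.42. A single inner peak stood out there, with 98 fragments (79.6 to 119) over a background of 8.73.

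The second 9-peak run on chromosome 1, from 72096775 to 72104888, had folds of 2.53 to 6.92. The one on chromosome 2, from 44427986 to 44438372, had folds of 3.19 to 8.51. The strongest peak was the second in the chromosome 1 run and the last in the chromosome 2 run. The most compact runs of 8 lay on chromosome 5 from 57559884 to 57565505, with folds of 2.53 to 5.07, and on chromosome 3 from 63355306 to 63362419, with folds of 2.65 to 6.86. The chromosome 5 run packed its 8 summits into 5322 bp, at distances of 485 to 959 bp. The median fold of these 6 runs lay between 3.79 and 4.16. The 3 longer runs of 8 had higher medians: 4.18 on chromosome 9 from 63683616 to 63692192, and 4.65 and 6.53 in runs on chromosomes 1 and 3 described further on. Peaks outside runs had a median of 4.34, so 2 of the 9 runs with 8 or 9 peaks lay above it.

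**Figure D5:**
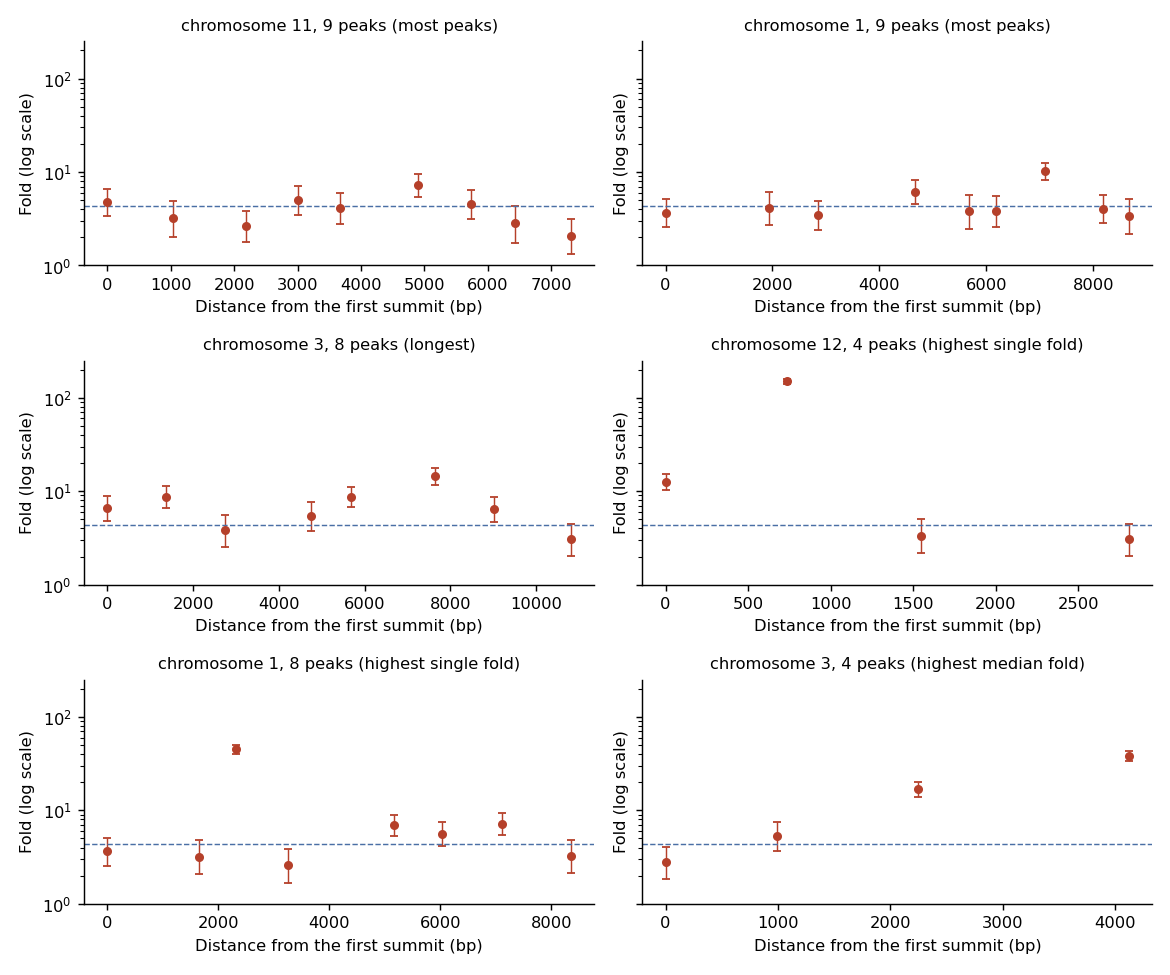
Fold enrichment (log scale) of each peak against its distance in bp from the first summit, in 6 runs named in the text; titles give the chromosome, the number of peaks and why the run was chosen. Bars are exact Poisson 95% intervals of the pileup, with the background taken as exact, and the dashed line is the median fold of peaks outside runs, 4.34. In the chromosome 12 run 1 peak reaches 149-fold while the last 2 lie near 3-fold.

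In the runs with the highest single fold, 1 peak was far stronger than the others. Choosing runs by their highest peak favours this, so nothing particular to runs is read from it. The others were not all weak, since in some of these runs they included peaks above 4.34-fold, the median outside runs. The strongest member of all was the second of 4 peaks on chromosome 12 from 30434488 to 30437558, in the central zone. The folds there were 12.6, 149, 3.35 and 3.05, with 105, 1323, 22 and 26 fragments. Its first 2 summits were 736 bp apart. On chromosome 3 from 22660532 to 22666047, also central, the first peak had 105-fold with 750 fragments (697 to 806), and the other 3 had 3.13, 3.10 and 2.53. The weak companions of these peaks had 17 to 26 fragments, apart from the 12.6-fold peak.

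The next strongest members were in distal runs. On chromosome 1 from 90256556 to 90265354, at 99.4% of the span, 8 peaks had folds of 3.66, 3.20, 45.2, 2.60, 7.01, 5.65, 7.21 and 3.25. On chromosome 4 from 674622 to 679037 the first of 5 peaks had 45.02-fold with 314 fragments, and the others 2.72 to 3.86. On chromosome 1 from 83324203 to 83328664 the last of 5 had 43.1-fold with 285 fragments, and the others 4.10 to 6.53. On chromosome 10 from 64394098 to 64399250 the second of 4 had 42.9-fold with 398 fragments, and the others 4.71 to 6.89. The 45.2-fold peak on chromosome 1 and the 45.02-fold peak on chromosome 4 had counting intervals of 283 to 354 and 280 to 351 fragments. These intervals overlap, so the order of the peaks is not resolved. Their order by fold against the 43.1-fold and 42.9-fold peaks was not checked.

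Of the 889 runs, 40 had 2 and 5 had 3 peaks at 10-fold or more, with 9.23% of all peaks past that fold. The 4 runs with the highest median fold were among them, as medians this high require in runs of 4 peaks. The highest median, 14.01, was on chromosome 12 from 58510974 to 58515648, with folds of 8.02, 2.81, 20.005 and 28.1. On chromosome 3 from 26116414 to 26120243 the folds alternated, 22.4, 5.20, 17.7 and 2.48. On chromosome 11 from 12792287 to 12796634 they were 4.53, 15.6, 11.2 and 11.03, and all 4 peaks had the lowest background, 4.08. On chromosome 3 from 3474581 to 3479016 they increased along the run, 2.77, 5.35, 16.8 and 38.1, and the last 2 peaks were 1067 and 1311 bp wide. Each of these 4 runs had exactly 4 peaks and at least 1 peak under 5-fold.

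The longest run spanned 10814 bp on chromosome 3 from 60948277 to 60960456, with 8 peaks. Its folds were 6.62, 8.68, 3.80, 5.43, 8.75, 14.4, 6.44 and 3.05, a median of 6.53, and its first peak was 1433 bp wide. The shortest spanned 1741 bp on chromosome 10 from 16017601 to 16019612. Its 4 peaks had folds of 9.29, 5.29, 2.996 and 4.63, at distances of 603, 563 and 575 bp.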

How the data were processed

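Fragments bound by SlWUS and an input library were sequenced, 1 library per group. Per the submitters' processing notes, Bowtie2 2.2.5 (alignment), MACS2 2.1.2 (peak calling) and ChIPseeker (annotation) were used; for their settings, duplicate removal and use of the input, nothing is given in the sources used here. The authors deposited, per peak, an interval, a summit, a fold over the local background (a ratio), −log10 p, −log10 q and a score; the score was not used. Total reads per library were not used here. Sequence names place the peaks on SL4.0, and positions count from 1.

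Pileup and background were solved from fold, (pileup + 1)/(background + 1), and the Poisson upper tail, in which all 65452 peaks gave a whole pileup (tolerance 0.001 on −log10 p). The summit is the highest point of a peak, so its pileup is a selected value. The span of a chromosome is the end of its last peak. Density ratios had 0.5 added to each count of runs or peaks. For inner against end peaks, the mean of the inner peaks minus the mean of the first and last was taken per run, then the median over runs per chromosome. A local comparison used runs with at least 3 other peaks within 50 kb. Intervals cover counting error only. Members, classes and comparisons were chosen with earlier results of these data known. Named runs are the 6 with the most peaks (ties went to the shorter span, which kept 2 of the 5 runs of 8), the 6 with the highest single fold, the 4 with the highest median fold, the longest and the shortest. Alternatives changed the distance limit, the least number of summits, the distance measure, the peak threshold, close peaks, the zones and the peaks set against run peaks. Scripts were tested on simulated data. The software was scipy 1.17.1, numpy 2.4.6 and pandas 2.3.3 under Python 3.11.15, with plots from matplotlib 3.10.9.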

Additional observations from a re-analysis of the deposited data

How the results depend on the processing

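The number of runs follows from the rule. It was 73 with a distance limit of 1000 bp and 1873 with 3000 bp, and 3025 with at least 3 summits and 90 with at least 6. The share of peaks in runs was 0.460%, 13.7%, 15.9% and 0.898% in these settings, and 5.24% with an edge gap of up to 1500 bp, 4.997% with −log10 q of 3 or more, and 5.80% with peaks under 500 bp apart merged. The number of runs was 772, 690 and 845 in these last settings. Of 86 values under alternatives, 69 stayed near the reported value and 17 moved past the limit, which was 1.5 times for the number of runs, the 95% interval for shares and 1 SD over chromosomes for the rest. Where that SD exceeded the reported value, a value of the other sign could count as near. This occurred for the differences in pileup and background, for inner minus end width and for first minus last fold. The other moved values were the background difference at 1000 bp (-0.065 fragments), inner minus end peaks with at least 6 summits (log2 fold 0.086, width 38.7 bp), first minus last log2 fold (-0.15 at 1000 bp, -0.16 with at least 6 summits), and the share past 10-fold at −log10 q of 3 or more (9.24%, with 9.83% of all such peaks). The cause of these was not tested. The distal excess of runs kept its direction in every setting, from 3.14 times at 1000 bp to 6.46 times with at least 6 summits. Comparison with peaks within 50 kb was added after seeing the data. With 1 library, the depth limits the order of peaks near the median, and no result has a replicate.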

Other observations

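Evenly spaced runs were few. The coefficient of variation of the distances was under 10% in 44 runs and under 5% in 9. The most even run lay on chromosome 6 from 24312206 to 24317304, with distances of 1623, 1526 and 1577 bp. Its folds were 10.9, 4.28, 4.36 and 5.34, and its peak widths ranged from 268 to 496 bp. The next lay on chromosome 2 from 31297345 to 31300620, with distances of 1016, 1007 and 1073 bp and folds of 4.24, 3.75, 10.7 and 2.56. In another of the 9, on chromosome 1 from 87991877 to 87997202, the folds ranged from 2.67 to 3.86. These runs were singled out after their values were seen.

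A background of at least 1.5 times the median of all peaks was found at 3.42% of run peaks (exact 95% interval 2.88 to 4.03%) and at 3.10% of other peaks (2.97 to 3.24%). The median background of a run was at least 1.5 times the 6.11 fragments of all peaks in 3 of 889 runs. They lay on chromosome 3 from 59220605 to 59224589 (4 peaks, median background 18.8, median fold 4.19), on chromosome 1 from 78823375 to 78827418 (4 peaks, 13.8, 3.03) and on chromosome 4 from 56954709 to 56963816 (7 peaks, 11.4, 3.20).

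Weak peaks were part of some runs. The −log10 q was under 3 in 7.19% of run peaks (exact 95% interval 6.40 to 8.03%) and in 5.99% of other peaks (5.80 to 6.18%). In 635 of 889 runs (71.4%) every peak had a −log10 q of 3 or more. The summit sat slightly further along the peak in first than in last peaks, by 2.43 ± 2.39 percentage points of the width (SD, 12 chromosomes), and on 9 of 12 chromosomes. Runs were chosen by distances between summits, so this offset is not independent of the rule and nothing is read from it.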
